A study of Mus musculus with 36 samples.

Results

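Where GFP-tagged ZFP296 and SIN3A bind the genome of mouse embryonic stem cells (ESCs) was compared site by site. ZFP296 was represented by all 3102 peaks of its ChIP-seq list. SIN3A was represented by the 8843 peaks of the preparation with spike-in chromatin that overlap a peak of the preparation without spike-in by at least 1 bp. These 11945 regions are part of 104813 peaks in the 9 peak lists of the series. A ZFP296 peak that overlaps a SIN3A site by at least 1 bp was called common, which gave 555 ZFP296 peaks at 563 SIN3A sites, 2547 ZFP296-only peaks and 8280 SIN3A-only sites.

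The series profiles chromatin factors and histone marks in ESCs and in neural progenitors derived from them. SIN3A was precipitated with a SIN3A antibody from wild-type R1 ESCs, once without and once with spike-in chromatin. ZFP296 was precipitated with a GFP antibody from an ESC line that carries a GFP-tagged ZFP296, once. By the methods, R1 ESCs were grown in serum and LIF with 2i, and no medium is stated there for another ESC line. The ZFP296 line is a ZFP296 BAC line of R1 ESCs by its labels, but a KH2 ESC line transfected with a cloned, GFP-tagged ZFP296 by the methods, and neither source states that the cells' own Zfp296 gene was removed. The ZFP296 line is tagged and the SIN3A cells are not, so cell line and factor cannot be told apart. MBD3 and CHD4 lists from wild-type R1 ESCs, with 2 replicates each, were used as further readouts. Peak lists hold no expression values, so the identity of the cells was taken from the labels.

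SIN3A is the scaffold of a histone deacetylase complex that contains HDAC1 and HDAC2 and that DNA-binding repressors, such as the MXD proteins, bring to promoters. The same deacetylases are found in NuRD, a complex that also remodels nucleosomes, with CHD4 as its ATPase and MBD3 as a structural subunit. ZFP296 is a zinc finger protein of pluripotent cells.

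Sequences of sites from the 3 classes show the DNA that the comparison separated. The value of a peak is the −log10 significance from the authors' peak caller, which ranks peaks within a list and is not on a common scale between lists. Each is the central 200 bp of a site, read from the plus strand of mm9, and was the site of highest value in its class and position that held the string in capitals, on either strand; the Pou5f1 site was taken as a named gene and shows every searched string it holds. The capitals mark the octamer ATGCAAAT in the Ptprg and Tnrc18 sites, the telomere unit TTAGGG and the SOX string CCATTGT in the Pou5f1 site, the GC box GGGCGG in the 2310021P13Rik and Mll1 sites, the YY1 string AAGATGGC in the Zbtb22 site and both strands of TCTCGCGA, a string bound by BANP, in the Spsb3 site.
ZFP296-only, intron of Ptprg (chr14:12496223-12496422): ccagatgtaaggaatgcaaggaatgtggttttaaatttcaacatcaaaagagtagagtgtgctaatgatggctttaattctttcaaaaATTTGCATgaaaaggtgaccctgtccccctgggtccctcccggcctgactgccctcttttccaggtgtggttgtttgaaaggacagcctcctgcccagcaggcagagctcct
common, intron of Tnrc18 (chr5:143562386-143562585): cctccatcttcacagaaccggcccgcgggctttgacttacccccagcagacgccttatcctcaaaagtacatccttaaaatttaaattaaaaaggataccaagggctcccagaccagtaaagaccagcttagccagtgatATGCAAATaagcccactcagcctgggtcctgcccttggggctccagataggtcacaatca
common, upstream of Pou5f1 (chr17:35641977-35642176): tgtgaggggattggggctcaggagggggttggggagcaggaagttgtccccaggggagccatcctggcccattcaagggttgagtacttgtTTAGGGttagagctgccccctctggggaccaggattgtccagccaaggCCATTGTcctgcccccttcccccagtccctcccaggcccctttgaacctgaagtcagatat
common, start of 2310021P13Rik (chr14:21526546-21526745): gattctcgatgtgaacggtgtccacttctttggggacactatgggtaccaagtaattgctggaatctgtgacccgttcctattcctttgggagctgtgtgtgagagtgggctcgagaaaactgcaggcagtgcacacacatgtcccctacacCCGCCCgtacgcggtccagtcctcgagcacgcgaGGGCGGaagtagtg
SIN3A-only, start of Zbtb22 (chr17:34052970-34053169): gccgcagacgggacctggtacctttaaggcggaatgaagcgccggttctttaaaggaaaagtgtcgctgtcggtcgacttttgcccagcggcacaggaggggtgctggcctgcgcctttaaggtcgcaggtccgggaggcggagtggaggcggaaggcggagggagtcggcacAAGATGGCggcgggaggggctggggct
SIN3A-only, start of Spsb3 (chr17:25023466-25023665): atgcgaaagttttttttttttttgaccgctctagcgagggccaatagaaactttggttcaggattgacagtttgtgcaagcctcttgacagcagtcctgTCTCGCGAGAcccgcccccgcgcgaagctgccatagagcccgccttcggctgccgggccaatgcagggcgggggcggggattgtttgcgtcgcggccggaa
SIN3A-only, start of Mll1 (chr9:44689437-44689636): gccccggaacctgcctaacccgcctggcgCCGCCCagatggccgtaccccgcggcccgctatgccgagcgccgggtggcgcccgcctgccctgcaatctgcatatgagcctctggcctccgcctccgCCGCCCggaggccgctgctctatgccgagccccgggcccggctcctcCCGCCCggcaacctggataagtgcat

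The Pou5f1 window held no CpG dinucleotide. The window at the start of Mll1, a histone methyltransferase gene, held 23 CpG dinucleotides and 74.5% GC.

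The first question was how many sites the proteins share. Of the ZFP296 peaks, 17.9% were common (95% exact interval 16.6% to 19.3%), whereas 6.37% of SIN3A sites carried a ZFP296 peak (interval 5.87% to 6.90%). These shares come from single lists, and all intervals cover counting error only. A further 787 ZFP296-only peaks (30.9%) overlapped a SIN3A peak that was called in a single preparation or at shifted places in both, and 1760 ZFP296 peaks (56.7% of all) overlapped no SIN3A peak at all. The list without spike-in alone raised the common share of ZFP296 peaks to 38.4%, and the list with spike-in alone gave 22.7%. At common sites the midpoints of both peaks were close, with a median distance of 68 bp (quartiles 30 and 120 bp), and 68.5% of them lay within 100 bp of each other. ZFP296 held few peaks on chromosome 6 (82 peaks, 2.64% of the list) and chromosome 8 (66 peaks, 2.13%), which held 6.55% and 7.94% of SIN3A sites, and on these 2 chromosomes 29.3% and 36.4% of ZFP296 peaks were common.

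The position of the sites on the annotation differed between the classes. A site was assigned to a TSS window when its midpoint lay between 1 kb upstream and 5 kb downstream of the start of a protein-coding gene. SIN3A-only sites lay in TSS windows at 6951 of 8275 positions (84.0%, exact interval 83.2% to 84.8%). ZFP296-only peaks did so at 483 of 2534 positions (19.1%, interval 17.5% to 20.6%), and common sites stood between them with 213 of 553 (38.5%, interval 34.4% to 42.7%). Shares of common sites are given at the ZFP296 midpoint, and tests against SIN3A-only sites use the SIN3A midpoint.

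The remaining sites were mainly intergenic or intronic. Of all ZFP296-only peaks, 45.1% were intergenic, 32.0% intronic and 3.79% exonic. Of all common sites, 30.9% were intergenic and 28.8% intronic, and of all SIN3A-only sites 7.25% and 5.93%. All 3 differences in TSS share exceeded the spread expected over sites. The odds ratio of lying in a TSS window was 0.0449 for ZFP296-only against SIN3A-only (exact interval 0.0399 to 0.0504, with a p too small for the software to hold). It was 2.66 for common against ZFP296-only (interval 2.17 to 3.26, adjusted p = 3.07e-21 in a two-sided Fisher's exact test) and 0.119 for common against SIN3A-only (interval 0.0992 to 0.143, Fisher's exact test, adjusted p = 4.35e-119). These p-values measure the spread over sites of single lists, not between repeated experiments.

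**Figure D1:**
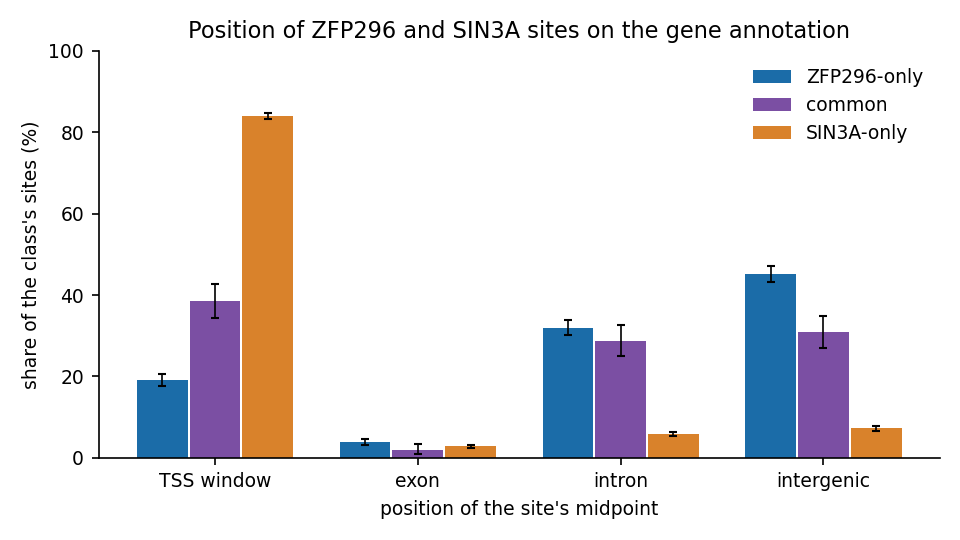
Share of each class's sites (y axis, %) whose midpoint lies in a TSS window, exon, intron or between genes (x axis), for ZFP296-only, common and SIN3A-only sites on chromosomes 1 to 19, X and Y. Bars are shares and error bars 95% exact intervals; TSS windows hold 84.0% of SIN3A-only sites and 19.1% of ZFP296-only peaks.

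Seen from SIN3A, the same counts show that ZFP296 was found at a smaller share of SIN3A sites in TSS windows than outside them. It was present at 216 of 7167 SIN3A sites in TSS windows (3.01%, exact interval 2.63% to 3.44%) and at 345 of 1669 SIN3A sites outside them (20.7%, interval 18.8% to 22.7%). Seen from ZFP296, the direction was the opposite. A SIN3A site was present at 213 of 696 ZFP296 peaks in TSS windows (30.6%, interval 27.2% to 34.2%) and at 340 of 2391 outside them (14.2%, interval 12.8% to 15.7%). Counted by gene, 6.23% of genes with a SIN3A site in the TSS window also held a ZFP296 peak there, against 3.18% of all protein-coding genes. The low share at SIN3A sites in TSS windows is therefore not a lack of ZFP296 relative to all genes.

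Distances from the nearest gene start separated the classes in the same order. The median distance was 259 bp for SIN3A-only sites (quartiles 99 and 869 bp), 7629 bp for common sites and 18381 bp for ZFP296-only peaks. Within 500 bp of a gene start lay 65.6% of SIN3A-only sites, 25.3% of common sites and 9.04% of ZFP296-only peaks. Farther than 50 kb from any protein-coding gene start lay 3.58%, 15.7% and 25.02%. Even among sites in TSS windows, ZFP296-only peaks were farther from the start, with a median of 540 bp against 238 bp at common and 198 bp at SIN3A-only sites. For these distances no test was made.

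**Figure D2:**
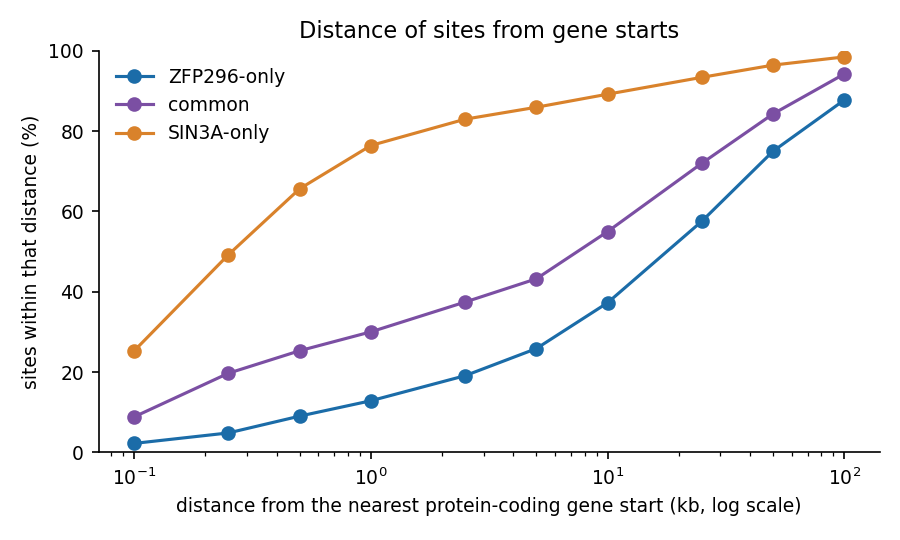
Cumulative share of sites (y axis, %) within a given distance of the nearest protein-coding gene start (x axis, kb, log scale) for each class. Lines join the shares at 10 distances; at 1 kb they stand at 76.4% for SIN3A-only, 30.0% for common and 12.9% for ZFP296-only sites.

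The DNA of the classes differed in base composition. The median GC content of the central 200 bp was 69.0% at SIN3A-only sites, 54.0% at common sites and 50.5% at ZFP296-only peaks, against 59.0% around all protein-coding gene starts. The median ratio of observed to expected CpG was 0.866, 0.312 and 0.219. A ratio of at least 0.6, as in CpG islands, was found at 84.5% of SIN3A-only sites, 24.8% of common sites and 13.2% of ZFP296-only peaks. Common sites in TSS windows reached this ratio in 53.1% of cases, and SIN3A-only sites there in 90.3%. Outside TSS windows the shares were 7.06% for common sites, 6.97% for ZFP296-only peaks and 54.0% for SIN3A-only sites.

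Fixed strings were searched on both strands of the central 200 bp to ask which motifs accompany each class. The 14 strings were tested in 3 pairs of classes, with 42 two-sided Fisher's exact tests adjusted together. The string of 2 tandem telomere units contains the single unit TTAGGG. A match is a run of letters and not a shown binding site. Between ZFP296-only and SIN3A-only sites all 14 strings differed, 7 in each direction.

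Over all positions, strings of pluripotency factors were more frequent at ZFP296 peaks, with or without SIN3A, than at SIN3A-only sites. The octamer ATGCAAAT, bound by POU5F1, was found at 4.58% of ZFP296-only peaks and 0.532% of SIN3A-only sites (odds ratio 8.97, exact interval 6.27 to 13.04, adjusted p = 1.09e-38). At common sites it was found in 5.06%, and around all gene starts in 0.952%. The SOX string CCATTGT was found at 6.51% of ZFP296-only peaks, 5.24% of common sites and 1.45% of SIN3A-only sites, with an odds ratio of 4.73 for the first against the last (Fisher's exact test, adjusted p = 1.18e-35). The ESRRB string TCAAGGTCA stood at 2.57%, 2.35% and 0.375% in the same order (odds ratio 7.00, Fisher's exact test, adjusted p = 1.83e-19), and the KLF string GGGTGTGG at 6.51%, 6.51% and 2.69% (odds ratio 2.51, Fisher's exact test, adjusted p = 1.38e-16).

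For each of these 4 strings the difference between common and ZFP296-only sites missed the threshold. The odds ratio of the octamer was 1.11 with an exact interval of 0.700 to 1.71, so that a difference of that size in either direction could not be detected. Windows 10 kb downstream of ZFP296-only peaks held the octamer in 0.988%, the SOX string in 2.49%, the ESRRB string in 0.949% and the KLF string in 1.70% of cases, below the peaks themselves. Windows 10 kb downstream of SIN3A-only sites held them in 0.979%, 2.83%, 0.592% and 1.75%. SIN3A-only sites themselves were below these shares for octamer, SOX and ESRRB strings and above for the KLF string. The odds ratios against SIN3A-only sites thus hold both differences, and neither was tested.

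The AP-1 string TGACTCA was found at 3.75% of ZFP296-only peaks, 3.62% of common sites and 1.61% of SIN3A-only sites (odds ratio of the first against the last 2.38, Fisher's exact test, adjusted p = 3.42e-09). Windows 10 kb downstream held it in 3.52%, 3.98% and 3.22% of cases, so its share at ZFP296 peaks was close to that beside them and its share at SIN3A-only sites was lower. Outside TSS windows the difference missed the threshold (odds ratio 1.45, Fisher's exact test, adjusted p = 0.140).

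Strings known from promoters were more frequent at SIN3A-only than at ZFP296-only sites, but 4 of these 7 strings (YY1, NRF1, BANP and CCAAT) had a lower share there than around all gene starts, a comparison with no test. The GC box GGGCGG, bound by SP and KLF proteins, was found at 57.3% of SIN3A-only sites, 19.3% of common sites and 9.94% of ZFP296-only peaks, against 40.0% of all gene starts. Common sites held it more often than ZFP296-only peaks (odds ratio 2.17, exact interval 1.68 to 2.80, adjusted p = 1.56e-08). The ETS string CCGGAAGT was found at 4.25% of SIN3A-only sites, 3.07% of common sites and 0.868% of ZFP296-only peaks, against 4.20% of all gene starts, and common exceeded ZFP296-only sites (odds ratio 3.62, Fisher's exact test, adjusted p = 0.000309).

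The E-box CACGTG, which MYC, MAX and MXD proteins bind, was found at 7.19% of SIN3A-only sites, 6.51% of common sites and 3.71% of ZFP296-only peaks, against 5.54% of all gene starts. It was more frequent at common than at ZFP296-only sites (odds ratio 1.81, Fisher's exact test, adjusted p = 0.00835). The YY1 string AAGATGGC and the NRF1 string GCGCATGC were found at 2.51% and 1.55% of SIN3A-only sites and at 0.829% and 0.355% of ZFP296-only peaks. The BANP string TCTCGCGA was found at 70 SIN3A-only sites (0.846%) and 1 ZFP296-only peak. All gene starts held the YY1, NRF1 and BANP strings in 3.04%, 2.58% and 1.08% of cases, above the shares at SIN3A-only sites. YY1, NRF1 and BANP strings were less frequent at common than at SIN3A-only sites, with adjusted p = 7.31e-05, 0.0278 and 0.0348 in Fisher's exact test. At the SIN3A midpoints used there, 1, 2 and 0 of 561 common sites held them. Inside TSS windows only YY1 passed (Fisher's exact test, adjusted p = 0.0210), and outside them none of the 3 strings did. At ZFP296 midpoints the YY1 string was found at 0.904% of common sites. The string CCAATNAG, part of the CCAAT box, was found at 1.74% of ZFP296-only and 2.59% of SIN3A-only sites (odds ratio 0.666, adjusted p = 0.0234 in Fisher's exact test), both below the 5.71% of all gene starts.

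**Figure D3:**
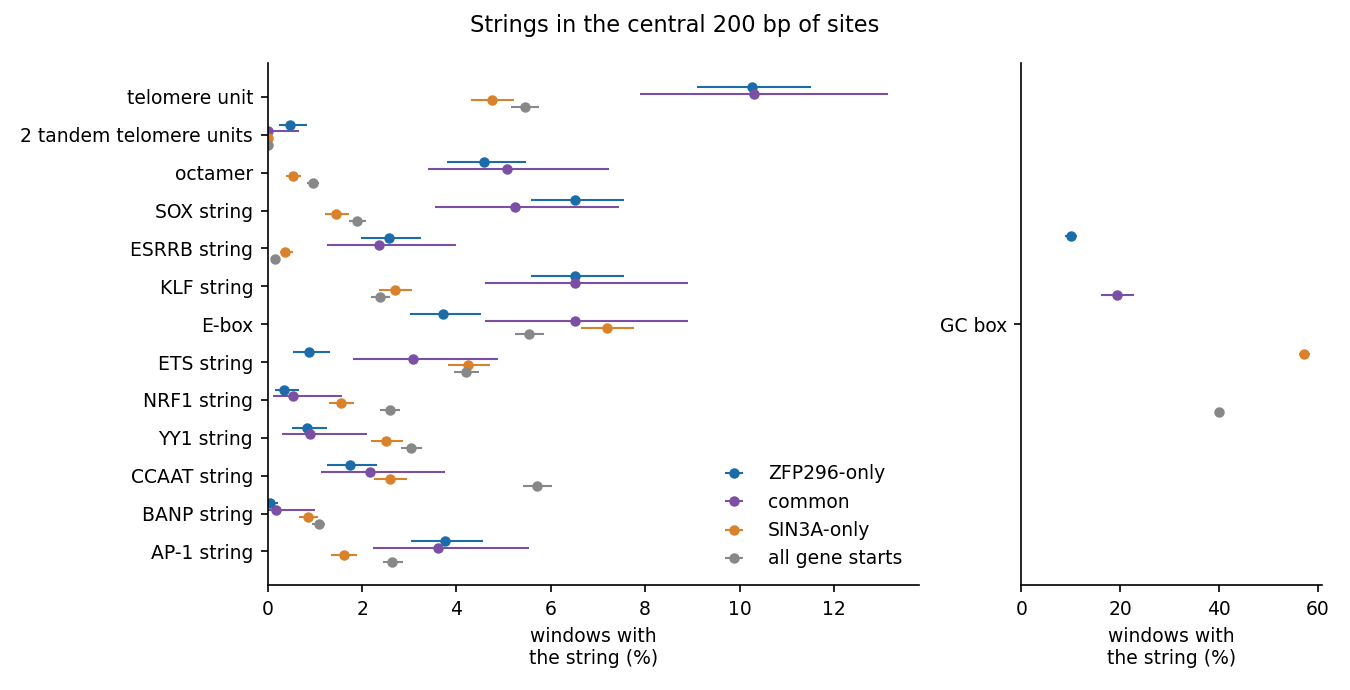
Share of windows of 200 bp that hold each string (x axis, %), for the 3 classes and for all protein-coding gene starts; strings are named by the factor or element they are known for, and the GC box has an axis of its own. Points are shares and bars 95% exact intervals; octamer, SOX, ESRRB and KLF strings are more frequent at ZFP296-only than at SIN3A-only sites, and the GC box runs from 9.94% to 57.3%.

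Part of this pattern held at a given position. Among sites in TSS windows, ZFP296-only peaks still held the octamer more often than SIN3A-only sites (2.90% against 0.288%, odds ratio 10.3, Fisher's exact test, adjusted p = 1.16e-07), and the GC box less often (19.3% against 59.7%, odds ratio 0.161). Outside TSS windows the octamer stood at 4.97% against 1.81% (odds ratio 2.83, Fisher's exact test, adjusted p = 1.01e-05), and the GC box at 7.75% against 44.7% (odds ratio 0.104). Inside TSS windows 5 strings were more and 2 less frequent at ZFP296-only than at SIN3A-only sites, and outside them 6 and 5. The SOX string missed the threshold inside TSS windows, at 2.48% against 1.15% (odds ratio 2.19, Fisher's exact test, adjusted p = 0.0544), and stood at 7.46% against 3.02% outside them (odds ratio 2.59, Fisher's exact test, adjusted p = 2.94e-07). E-box, ETS, NRF1, BANP, CCAAT and tandem telomere strings also missed it inside TSS windows, and YY1, CCAAT and AP-1 strings outside them. For common against SIN3A-only sites inside TSS windows, the octamer and SOX strings passed the threshold. The ESRRB string (0.926% against 0.259%) and the KLF string (3.24% against 2.52%) missed it there (adjusted p = 0.253 and 0.757, Fisher's exact test). Outside TSS windows all 4 of these strings passed. Between common and ZFP296-only sites the E-box had an odds ratio of 1.56 inside and 1.65 outside TSS windows, and the ETS string of 2.34 and 3.04, in the direction of all sites together but short of the threshold in these smaller sets (adjusted p = 0.330 and 0.152, and 0.113 and 0.111, Fisher's exact test). GC content moves with these shares, and its part in them was not tested.

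The telomere unit TTAGGG was found at 10.3% of ZFP296-only peaks, 10.3% of common sites and 4.75% of SIN3A-only sites, with an odds ratio of 2.29 for ZFP296-only against SIN3A-only sites (Fisher's exact test, adjusted p = 5.49e-21). Windows 10 kb downstream of ZFP296-only peaks held it in 8.26% of cases, and those of common and SIN3A-only sites in 9.40% and 7.87%. At least 2 tandem units were found at 12 ZFP296-only peaks and at 0 of 553 common sites (exact upper bound 0.665%) and 0 of 8275 SIN3A-only sites (upper bound 0.0446%). For ZFP296-only against SIN3A-only the adjusted p was 7.56e-08, and for common against ZFP296-only it was 0.211 (Fisher's exact test).

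The 12 peaks with tandem units lay on 10 chromosomes, 1 of them in a TSS window, with 5 to 23 units in the window and ZFP296 values from 12.96 to 57.3. These sites were examined after their values were seen. None of the 12 overlapped a peak of any MBD3 or CHD4 list (exact upper bound 26.5%), whereas 71.9% of all ZFP296-only peaks overlapped a peak of at least 1 of these 4 lists. A SIN3A peak was present at 1 of the 12, in the list without spike-in.

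NuRD subunits were present most often where ZFP296 and SIN3A were both found. MBD3 and CHD4 sites are replicate 1 peaks that overlap a replicate 2 peak. An MBD3 site was present at 39.4% of common sites (218 of 553, exact interval 35.3% to 43.6%), 15.9% of ZFP296-only peaks (404 of 2534, interval 14.5% to 17.4%) and 2.27% of SIN3A-only sites (188 of 8275, interval 1.96% to 2.62%). A CHD4 site was present at 61.5% (interval 57.3% to 65.6%), 35.4% (33.6% to 37.3%) and 8.70% (8.10% to 9.33%) in the same order.

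All 6 differences passed the test. For common against ZFP296-only sites the odds ratio was 3.43 for MBD3 (exact interval 2.79 to 4.21, adjusted p = 1.92e-31) and 2.91 for CHD4 (exact interval 2.40 to 3.53, adjusted p = 3.79e-29). For common against SIN3A-only sites it was 27.5 for MBD3 (exact interval 21.9 to 34.6) and 16.6 for CHD4 (13.7 to 20.1). For ZFP296-only against SIN3A-only sites it was 8.16 and 5.76, respectively. The sizes depended on single lists: without replicate 1 the MBD3 odds ratio of common against ZFP296-only sites was 1.64, that of ZFP296-only against SIN3A-only sites was 14.03 and the CHD4 odds ratio of common against SIN3A-only sites was 8.57, and without replicate 2 the MBD3 odds ratios against SIN3A-only sites were 4.78 for ZFP296-only and 16.4 for common sites. The CHD4 odds ratio of ZFP296-only against SIN3A-only sites was 3.76 with the SIN3A list without spike-in alone. With replicate 2 alone, MBD3 was present at 59.1% of common, 46.8% of ZFP296-only and 5.91% of SIN3A-only sites and CHD4 at 79.6%, 63.5% and 30.9%, and with replicate 1 alone MBD3 was present at 4.64% of SIN3A-only sites. CHD4 replicate 2 is labelled wild-type, but its peaks are named after a Zfp219 BAC.

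The presence of MBD3 and CHD4 was greatest away from promoters. The authors propose that CHD4 peaks without MBD3 could mark CHD4 acting outside NuRD. Such CHD4 sites were present at 22.5% of common sites in TSS windows and 26.8% outside them. The shares were 12.8% and 23.3% for ZFP296-only peaks, and 5.05% and 15.6% for SIN3A-only sites. The 2 MBD3 lists were shorter than those of CHD4 (2344 and 7551 against 11712 and 29974 peaks). The part of list length in these shares was not tested. Of common sites outside TSS windows, 54.7% carried MBD3 and 78.2% CHD4, and 175 of 340 (51.5%) carried both, so that all 4 proteins were called there. Of common sites in TSS windows, 15.02% carried MBD3 and 34.7% CHD4, and 62.4% carried neither. ZFP296-only peaks outside TSS windows carried MBD3 at 18.3% and CHD4 at 39.3%, and SIN3A-only sites outside TSS windows at 8.84% and 23.6%. SIN3A-only sites in TSS windows carried MBD3 at 1.02% and CHD4 at 5.86%, and 93.9% of them carried neither.

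Within each position common sites still exceeded both other classes. Outside TSS windows the odds ratio of common against ZFP296-only sites was 5.39 for MBD3 (Fisher's exact test, adjusted p = 5.94e-42) and 5.54 for CHD4 (Fisher's exact test, adjusted p = 2.51e-41), and inside them 2.76 and 2.29 (adjusted p = 0.000221 and 1.39e-05). Against SIN3A-only sites outside TSS windows the odds ratios were 12.2 for MBD3 and 11.04 for CHD4. ZFP296-only against SIN3A-only sites gave 2.31 for MBD3 and 2.09 for CHD4 outside TSS windows. Whether odds ratios differed between positions was not tested.

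**Figure D4:**
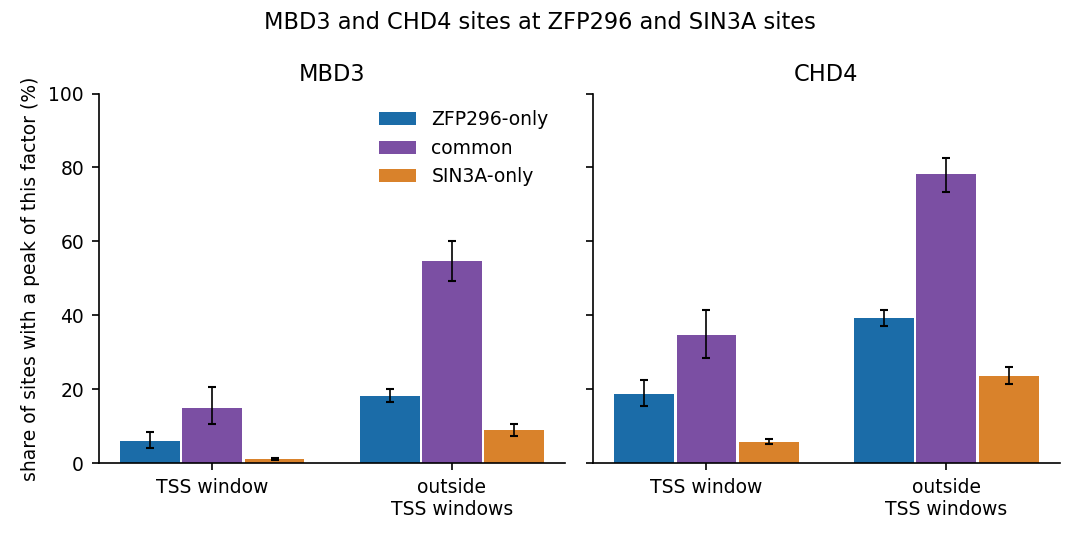
Share of sites with an MBD3 site (left) or a CHD4 site (right), in % (y axis), for each class inside and outside TSS windows (x axis). Bars are shares and error bars 95% exact intervals; common sites outside TSS windows stand highest, at 54.7% for MBD3 and 78.2% for CHD4, and SIN3A-only sites in TSS windows lowest, at 1.02% and 5.86%.

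Peak values were compared within a list only. ZFP296 peaks had a median value of 9.54 at common sites (quartiles 7.01 and 12.99) and 8.14 at ZFP296-only sites (quartiles 6.30 and 10.96). SIN3A peaks with spike-in had a median of 9.66 at common and 8.99 at SIN3A-only sites, with quartiles of 6.90 and 13.4 against 6.85 and 12.5. The ranges overlapped widely in both lists. When ZFP296 peaks were ranked by value into 5 groups of equal size, the common share rose from 11.97% in the lowest to 27.2% in the highest group. Outside TSS windows it ran from 7.31% (exact interval 5.14% to 10.02%) to 24.1% (20.3% to 28.1%), and inside them from 24.3% to 36.7%, where the intervals overlapped. Ranking SIN3A sites by value gave common shares from 16.2% to 27.9% outside TSS windows, and from 2.51% to 3.42% inside them without an order.

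**Figure D5:**
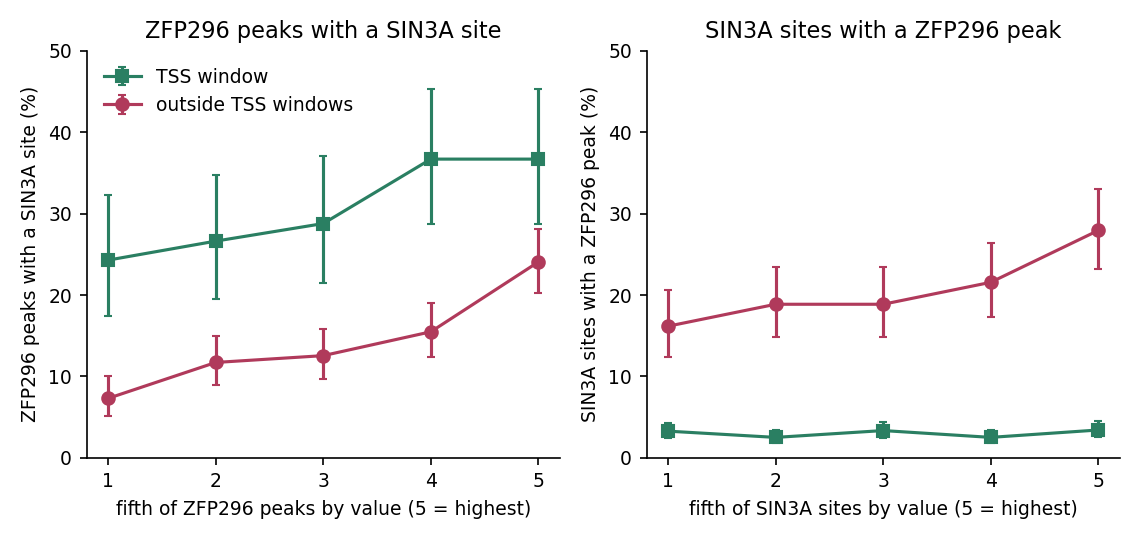
Share of ZFP296 peaks with a SIN3A site (left, y axis in %) and of SIN3A sites with a ZFP296 peak (right, y axis in %) in 5 groups ranked by the authors' value (x axis, 5 is the highest), inside and outside TSS windows. Points are shares and bars 95% exact intervals; outside TSS windows both shares are highest in the top group, at 24.1% and 27.9%.

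Genes were then assigned by the sites in their TSS windows. Of 22367 protein-coding genes on chromosomes 1 to 19, X and Y, 712 (3.18%) had a ZFP296 peak, 6384 (28.5%) a SIN3A site and 398 (1.78%) both. The 398 genes were 55.9% of those with ZFP296 and 6.23% of those with SIN3A, and 235 of them held a common site, which was present at 236 genes in all (1.06%). SIN3A alone was found at 5986 genes and ZFP296 alone at 314, which became 145 genes with the SIN3A list without spike-in alone. Of the 1552 genes nearest to ZFP296-only peaks outside TSS windows, 40.3% had SIN3A at their own start, and of the 305 genes nearest to common sites outside TSS windows 55.7% did.

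Gene lists described the targets further, as counts with no test. Of 29 pluripotency factors in the annotation, 7 had ZFP296 in the TSS window (24.1%, against 3.18% of all genes) and 18 had SIN3A (62.1%, against 28.5%). Of them 4 had both (13.8%, against 1.78% of all genes), namely Pou5f1, Klf4, Utf1 and Zfp296 itself. Within 100 kb of the start, 10 of the 29 had a common site (34.5%, against 8.84% of all genes) and 21 a ZFP296 peak (72.4%, against 29.1%). ZFP296 alone was found at Prdm14, Dppa5a and Lefty2, of which Prdm14 had a common peak whose SIN3A midpoint fell outside the window. Sox2, Nanog, Klf2 and Sall4 had SIN3A and no ZFP296 at their starts. With the SIN3A list without spike-in alone, 7 of the 29 had both, while the count over all genes rose from 398 to 567.

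Cell cycle genes and SIN3 complex genes held SIN3A in larger shares than all genes did. Of all genes, 1.78% had both proteins in the TSS window. Of 40 cell cycle genes 34 (85.0%, against 28.5% of all genes) had SIN3A in the TSS window and 3 (7.50%, against 3.18%) ZFP296, namely Cdk4, E2f2 and Wee1, all with both. Of 24 genes for subunits and partners of the SIN3 complex, 19 (79.2%) had SIN3A and 1, Tet1, had ZFP296. Of 74 respiratory chain genes 36 (48.6%) had SIN3A and 3 (4.05%) ZFP296. The number of them with both was 0, and 0 to 3 with other SIN3A lists and TSS definitions. At a share of 1.78%, a list of this length can hold 0 genes with both. Ribosomal protein genes had SIN3A at 27 of 78 (34.6%, against 28.5%) and ZFP296 at 7 (8.97%, against 3.18%), and Rplp0, Rpl18 and Rpl32 were among the 4 with both. With the SIN3A list without spike-in alone, 52 ribosomal protein and 58 respiratory chain genes had SIN3A. Counts over all genes rose with that list too, from 5986 to 8597 genes with SIN3A alone and from 398 to 567 with both proteins.

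The remaining lists were short and their counts moved with the SIN3A list. Of all genes, 28.5% had SIN3A and 3.18% ZFP296 in the TSS window. At a share of 3.18%, lists this short can hold 0 genes with ZFP296. None of 21 germline genes had ZFP296 or SIN3A in the TSS window, and 1 had SIN3A with the list without spike-in alone. Of 25 germ layer regulators 4 had SIN3A and 2, Mesp1 and Nkx2-2, had ZFP296, and with other lists and TSS definitions SIN3A was found at 1 to 10 and ZFP296 at 0 to 2 of them. Of 17 NuRD subunits and partners 8 (47.1%) had SIN3A and 0 had ZFP296, and of 13 genes of the MYC and MXD network 8 (61.5%) had SIN3A and 1, Mlxipl, had ZFP296. Over the same alternatives SIN3A was found at 7 to 14 of the NuRD genes and at 8 to 13 of the MYC and MXD genes. The genes outside the naming rule (Prdm14, Dppa5a, Lefty2, Sox2, Nanog, Klf2, Sall4, Mesp1, Nkx2-2 and Mlxipl) were chosen after their values were seen.

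Individual sites show how the lists behaved at single genes. At Pou5f1, which encodes the pluripotency factor OCT4, the common peak whose sequence is shown above lay 0.9 kb upstream (chr17:35641907-35642245). Its value was 22.6 in the ZFP296 list, 16.1 and 20.7 in the SIN3A lists without and with spike-in, 12.9 and 9.41 in the MBD3 replicates and 20.1 and 31.9 in the CHD4 replicates, so it was called in all 7 ESC lists. A second common peak stood at the start itself (chr17:35642860-35643094), with a ZFP296 value of 11.3 and SIN3A values of 18.9 and 6.82. At Utf1, a chromatin factor of ESCs, the common peak lay 1.9 kb downstream of the start (chr7:147131475-147131729; ZFP296 value 19.3, SIN3A values 11.3 and 10.01). At Klf4 the ZFP296 peak was weak (5.12) and overlapped SIN3A in the list without spike-in alone (20.6). In Tet1, which encodes a methylcytosine dioxygenase, the ZFP296 peak lay 3.5 kb into the gene (chr10:62358253-62358558, value 18.4) with SIN3A in the list without spike-in alone (15.4) and with all 4 MBD3 and CHD4 lists (11.5 to 19.5).

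The named common peaks at ribosomal protein and cell cycle genes lay in TSS windows, where most common sites lacked MBD3 and CHD4 sites. Of all common sites in TSS windows, 62.4% carried neither an MBD3 nor a CHD4 site. Over all positions, 82.3% of common sites overlapped a peak of at least 1 MBD3 or CHD4 list. This looser measure includes sites outside TSS windows and was not computed for TSS windows alone. Rpl32 had a common peak 0.2 kb upstream of its start (chr6:115758822-115759055) with a ZFP296 value of 20.3 and SIN3A values of 25.2 and 26.9. Common peaks at Rplp0 and Rpl18 had ZFP296 values of 8.56 and 7.71, and none of these 3 genes' common peaks overlapped a peak of an MBD3 or CHD4 list. At Cdk4, a cyclin-dependent kinase gene, the common peak had a ZFP296 value of 7.07 and SIN3A values of 8.64 and 4.64, also without MBD3 or CHD4. At Wee1, a kinase gene that restrains entry into mitosis, the ZFP296 value was 17.6, with SIN3A values of 21.2 and 13.8 and single peaks of MBD3 (9.79) and CHD4 (7.65). At E2f2 the ZFP296 peak (12.9) was ZFP296-only and overlapped a SIN3A peak of the list with spike-in alone (4.23).

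The common sites of highest ZFP296 value outside TSS windows lay near genes of varied function. The highest was 36.8 kb upstream of Slc2a1, a glucose transporter gene (chr4:118744114-118744921), with a ZFP296 value of 62.4, SIN3A values of 16.7 and 15.9 and MBD3 and CHD4 values of 17.98 to 34.5. An intron of Sh3pxd2a (62.4), a site 18.3 kb upstream of Kcnj12 (47.7) and a site 23.3 kb downstream of the start of Trim8 (44.2) were also called in all 7 lists. The remaining site, in an intergenic stretch near Sfi1 (44.6), had SIN3A and no MBD3 or CHD4 peak. In TSS windows the 5 highest common sites belonged to 2310021P13Rik (35.9), Gemin7 (30.9), Snai1 (28.5), Ccl25 (27.4) and Naprt1 (27.1). Snai1 encodes a repressor of epithelial genes.

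The ZFP296-only peaks of highest value included sites that stood apart from the rest. In TSS windows they belonged to Gm10722 (40.1), Gm10800 (39.3), Il31ra (37.4), Cdx1 (30.6) and Gm10718 (29.7). Gm10722 and Gm10718 lie in the first 100 kb of assembled chromosome 9, where ZFP296 had 17 peaks, SIN3A without spike-in had 32 with values up to 136, and SIN3A with spike-in, MBD3 and CHD4 had 0. The stretch of 10 kb around Gm10800 on chromosome 2 held 3 ZFP296 and 4 SIN3A peaks of the list without spike-in (values up to 160) and 0 peaks of the other 5 lists. Cdx1, a homeobox gene, carried all 4 MBD3 and CHD4 lists (11.6 to 26.0) and SIN3A in the list without spike-in alone (11.8). Outside TSS windows the highest ZFP296-only values were 85.8 near Nemf, 80.5 upstream of the heat shock gene Hspa8, 75.2 upstream of Zfp296, 60.2 in an intron of Mocos and 59.5 near Gm15698.

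The Zfp296 gene itself lies within a dense group of peaks. By its labels the ZFP296 line is a ZFP296 BAC line, and the number of copies of this stretch in it is not known. Within 200 kb of its start there were 7 ZFP296 peaks, of which 5 were common. The highest (75.2; chr7:20160891-20161529) lay 1.4 kb upstream of the start, with SIN3A in the list without spike-in alone (21.8) and CHD4 values of 29.1 and 54.8. The peak at the start (17.2; chr7:20162594-20162879) was common. MBD3 replicate 2 gave 51.7 at the upstream peak in cells labelled wild-type. Leaving out all sites within 200 kb changed the common share of ZFP296 peaks to 17.8%.

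Of all SIN3A-only sites, 91.0% carried neither an MBD3 nor a CHD4 site, and 34.2% overlapped a peak of at least 1 MBD3 or CHD4 list. The SIN3A-only sites of highest value were taken from this class. In TSS windows these were Abhd2 (145.8 with spike-in, 6.64 without), Mll1 (144.6 and 41.6), Rnf44 (122.7 and 97.8), Rpl22 (119.3 and 103.8) and Fam53c (111.1 and 120.3). Mll1 carried CHD4 in both replicates (11.4 and 33.1), and the other 4 had no MBD3 or CHD4 peak. Outside TSS windows the highest were introns of Filip1l (166.8 with spike-in, 10.2 without), Erich1 (112.9 and 284.7) and Phf21b (94.97 and 177.8), an exon of Sp2 (102.9 and 9.27) and an intron of Baz2a (91.7 and 108.9), and none of these 5 overlapped MBD3 or CHD4. Abhd2, Filip1l and Sp2 had values of at least 102.9 in one SIN3A list and at most 10.2 in the other, so that the order of SIN3A sites by value differed between the preparations.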

How the data were processed

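ChIP-seq peak lists of 7 ESC samples were used (GFP-ZFP296, SIN3A without and with spike-in, MBD3 and CHD4 with 2 replicates each). Lists from neural progenitors were not used here. The authors mapped reads to mm9 with BWA, kept uniquely mapped reads, removed duplicates and called peaks with MACS against input, and the submitters' processing notes name MACS2 2.0 and SAMtools. Each deposited peak carries a −log10 value, and the sources used here do not say if it is of p or of q. Peak names give a threshold of 0.0001 for SIN3A without spike-in and 0.001 for the other lists used, and state a common read number for all of these but both SIN3A lists. The read numbers of both SIN3A lists are unknown, no list gives reads per peak, and the number of sites limits the precision.

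Groups were taken from the sample titles. Site positions were taken from GENCODE vM1 protein-coding genes on mm9 (NCBIM37), by midpoint, on chromosomes 1 to 19, X and Y; overlap shares use all chromosomes. Class pairs were compared by two-sided Fisher's exact tests on sites, with Benjamini-Hochberg adjustment over 3 tests for TSS windows, 42 for strings and 6 for MBD3 and CHD4, at a threshold of 0.05. Intervals are 95% exact (Clopper-Pearson). Medians, distances and gene counts had no test. The classification and tests were tested on simulated data. Sequences were read from mm9 with pysam 0.24.0, and shares were computed with scipy 1.17.1.

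Named sites are the 5 of highest value inside and the 5 outside TSS windows in each class, and list genes with both proteins in the TSS window, of which 1 is not reported here. The members, gene lists and strings were chosen with earlier results of these data known. Of the list genes, Tfcp2l1, Sox1, Meioc and Rpl41 did not match the annotation. Alternatives for overlap, SIN3A list, threshold, list size, TSS definition, window and replicate were tried.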

Additional observations from a re-analysis of the deposited data

How the results depend on the processing

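All odds ratios for TSS windows, MBD3 and CHD4 kept their direction and side of the threshold under every alternative run. Those for TSS windows ranged from 0.0319 to 0.0573 (ZFP296-only against SIN3A-only), 1.99 to 3.74 (common against ZFP296-only) and 0.0757 to 0.176 (common against SIN3A-only). The share of ZFP296 peaks with SIN3A was 20.3% with midpoints within 500 bp, 43.3% with the union of both SIN3A lists, 9.86% with values of at least 10, 6.74% with equal numbers of sites, and 22.7% to 38.4% with single SIN3A lists. The share of SIN3A sites with ZFP296 was 7.02%, 7.48% and 3.20% under the first 3 of these, and 6.23% to 7.44% with single lists.

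Of strings less frequent at ZFP296-only than SIN3A-only sites, 2 remained inside TSS windows. Strings more frequent at common than ZFP296-only sites numbered 1 at values of at least 10, 1 inside and 1 outside TSS windows, and 0 to 1 were less frequent with single SIN3A lists and 2 with their union. Against SIN3A-only sites, 2 were more and 2 less frequent at common sites inside TSS windows, and 1 was less frequent outside them and 1 at values of at least 10. The odds ratio of CCAATNAG turned to 1.04 inside TSS windows, and that of TGACTCA (common against SIN3A-only) to 0 at values of at least 10, neither past the threshold. The difference in median ZFP296 value was 0.80 inside TSS windows. That in SIN3A value was 0.28 with midpoints, 1.07 outside TSS windows and 0.26 to 0.92 with single lists, and none could be had for the union. Genes with ZFP296 alone numbered 116 with the union and 145 to 265 with single lists, and genes with SIN3A alone 9329 with the union. Where an odds ratio had an empty class, no value was given under that alternative. The cause of these changes was not tested. Without chromosomes 6 and 8, or with ZFP296-only peaks lacking any SIN3A peak, both chosen after seeing the data, the TSS, MBD3 and CHD4 calls were kept. No paired analysis was possible because site classes, not replicate libraries, were compared. With 1 ZFP296 list and no read counts, binding levels could not be compared.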
